A study of Triticum aestivum with 13 samples.

Results

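A set of 96 probe sets separated leaves of the wheat line TugelaDn2 from leaves of its near-isogenic relatives, out of 61179 probe sets measured on an Affymetrix wheat array. They were chosen from their own log2 intensities. A probe set was a member when its 3 TugelaDn2 repeats lay all above or all below the 9 repeats of TugelaDn5, TugelaDn1 and Tugela, when the TugelaDn2 mean was at least 0.8 log2 units from the mean of each other line, and when the higher of the TugelaDn2 mean and the mean of the 9 was 8 or more. In 58 members TugelaDn2 was higher and in 38 it was lower. Because these values made the choice, the distances between TugelaDn2 and the other lines are given below as descriptions and carry no test.

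The arrays read RNA from leaves of 4 hexaploid lines after 48 h of no-choice feeding by 10 Russian wheat aphids (Diuraphis noxia, biotype SA1) per plant, started at the 3-leaf stage, with the first leaf left out of the harvest. TugelaDn2 carries Dn2 and is labelled resistant through tolerance, TugelaDn5 carries Dn5 and is labelled resistant through antibiosis and antixenosis, TugelaDn1 carries Dn1 and is labelled resistant through antibiosis, and Tugela, labelled Dn0, is the susceptible cultivar. Each line had 3 biological repeats, and repeat 3 of TugelaDn5 had a second array, labelled 3_2, which was averaged with the first. In the labels, a free-text field gives the name TugelaDn1 to samples of TugelaDn2 and TugelaDn5 too, whereas titles, source names and genotypes give each its own line, and these were followed. All plants carried aphids, and with none left without them among the samples analysed here, a difference that existed before feeding and a response to feeding cannot be told apart.

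Diuraphis noxia feeds on phloem sap and leaves streaks and rolled leaves on susceptible wheat. A tolerant plant withstands this feeding without harming the aphid, an antibiotic plant impairs the aphid's growth or reproduction, and an antixenotic plant is avoided by it. Near-isogenic lines are made by repeated crossing back to 1 cultivar, so that they differ mainly around the introduced gene, and in hexaploid wheat most genes occur as closely similar copies in the A, B and D subgenomes, so that probes for 1 copy can also catch another.

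A probe set is a group of short probes for 1 transcript. The first parts of its name, such as Ta.3830, mark the cluster of expressed sequences it was designed from, and a name that ends in _a_at, _s_at or _x_at belongs to a probe set that can share probes with related transcripts. Signal depends both on how much transcript is present and on how well its sequence matches the probes, and these cannot be told apart from intensities alone. In whole leaves, fewer cells of a type and less RNA per cell also cannot be told apart. Only 3 of the 96 members were paired with a gene in the annotation, 1 among the higher and 2 among the lower ones, and each is known by a LOC number alone. The other 93 are therefore given by the name of the probe set, and no function is attached to any member.

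Transcripts of photosynthesis were found in every line, although 15 of their 36 probe sets had a mean of 8 or more and the median over the 36 was 6.2 in TugelaDn2, 6.86 in TugelaDn5, 6.68 in TugelaDn1 and 6.86 in Tugela. The 36 were for 6 genes, and most of them were for the large subunit of RuBisCO (rbcl) alone. The brightest of the 36, one for rbcl, averaged 16.74 in TugelaDn2, 16.73 in TugelaDn5, 16.83 in TugelaDn1 and 16.82 in Tugela on the log2 scale. Of the 17 probe sets for seed storage proteins, 16 had a mean under 8. The exception was bright, Ta.27777.1.S1_at for avnlb, named after its values were seen. It averaged 13.10 in TugelaDn2, 13.35 in TugelaDn5, 13.04 in TugelaDn1 and 13.12 in Tugela. Median array intensity was between 82.5 and 98.0, the trimmed mean was 500.1 on all arrays, and from 19.3% to 21.4% of values on an array lay under the floor of 16, which is 4 on the log2 scale.

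The separation of TugelaDn2 from the other lines came in 2 directions, whose numbers became unequal only at the last condition of the rule, the level. All 3 TugelaDn2 repeats lay above the 9 others in 438 probe sets (0.716% of all) and below them in 442 (0.722%). Of these, 146 and 144 also had the required distance between means, and 58 and 38 were bright enough. Among the 19506 probe sets with a higher mean of 8 or more, the 3 TugelaDn2 repeats lay above the others in 1.52% and below them in 1.43%. The same rule, applied to each other line in turn, gave 851 probe sets for TugelaDn5 (332 higher, 519 lower), 43 for TugelaDn1 (34 higher, 9 lower) and 100 for Tugela (17 higher, 83 lower). Under this rule TugelaDn2 and TugelaDn1 thus had more higher than lower members, and TugelaDn5 and Tugela more lower than higher ones. For TugelaDn2 the excess depended on the limits, since a distance of 0.5 gave 104 higher and 107 lower members.

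The gap of a member is the distance between the TugelaDn2 mean and the nearest mean of another line. Its median was 1.19 among the higher members and 1.14 among the lower ones, its largest size was 4.24 and 5.29, and it was 2 or more in 11 higher and 7 lower members. The largest gaps were therefore on the lower side, where a few transcripts that were bright in the other lines were dim in TugelaDn2. The nearest line was TugelaDn5 in 21 of the 58 higher members, TugelaDn1 in 19 and Tugela in 18. Among the 38 lower members it was TugelaDn5 in 21, TugelaDn1 in 8 and Tugela in 9.

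The lower members were led by cluster Ta.3830, of which 4 of the 5 probe sets on the array were members. For Ta.3830.2.S1_x_at the TugelaDn2 repeats read 6.82, 5.65 and 8.18, against 12.16, 12.12 and 12.24 in TugelaDn5, 12.43, 12.55 and 12.42 in TugelaDn1 and 12.54, 12.58 and 12.53 in Tugela. Its gap of -5.29 corresponds to a 39.1-fold lower intensity than in TugelaDn5, the nearest line. The 3 TugelaDn2 repeats differed from each other by more than all 9 others did, yet the highest of them was 3.95 below the lowest of the 9.

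The brightest member of that cluster was even in all lines. Ta.3830.1.S1_a_at read 10.28, 10.47 and 10.05 in TugelaDn2, against 14.07, 14.14 and 14.15 in TugelaDn5, 14.34, 14.22 and 14.33 in TugelaDn1 and 14.47, 14.47 and 14.38 in Tugela. TugelaDn2 averaged 10.27 ± 0.21, and the gap of -3.85 is a 14.4-fold lower intensity. TugelaDn2 thus kept a clear signal for this probe set. Ta.3830.2.S1_at, with repeats of 4, 4 and 5.52 in TugelaDn2 and 8.72 to 9.57 in the 9 others, had 2 TugelaDn2 repeats at the floor, which makes it at least 22.6-fold lower than in TugelaDn1. The fourth member, Ta.3830.3.S1_x_at, read 6.91, 7.06 and 7.17 in TugelaDn2, and the 9 others lay between 7.51 and 9.43, with Tugela repeat 1 the lowest of them at 7.51. Its gap of -1.61 is 3.04-fold. The fifth probe set of the cluster, Ta.3830.3.S1_at, was dim everywhere, with means of 4.92 in TugelaDn2, 5.48 in TugelaDn5, 5.95 in TugelaDn1 and 4.59 in Tugela, and its repeats overlapped. These members come from the same cluster of expressed sequences and some of them can share probes, so they are not separate observations.

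**Figure D1:**
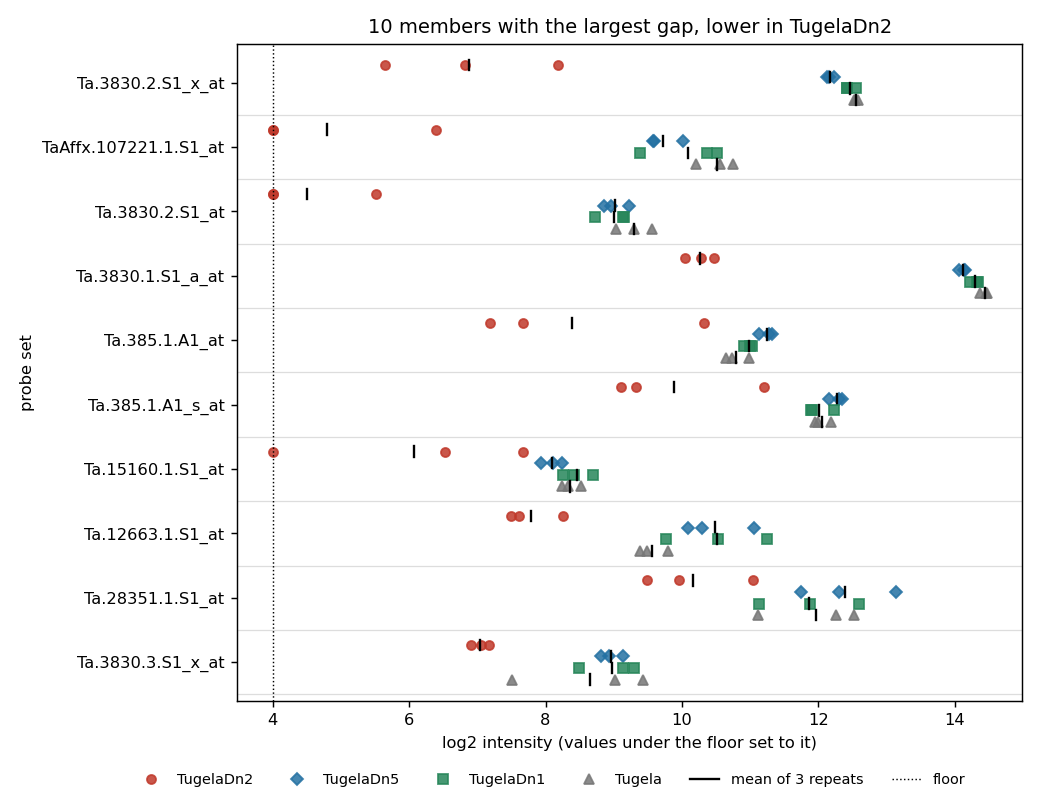
Log2 intensity (horizontal axis) of the 10 members lower in TugelaDn2 with the largest gap (vertical axis, one row each); points are the 3 repeats of each line, black bars the line means and the dotted line the floor at 4. TugelaDn2 lies left of the other lines in each row because the rule asked for it, by 3.95 for Ta.3830.2.S1_x_at and by 0.07 for Ta.28351.1.S1_at.

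TaAffx.107221.1.S1_at had the second largest gap. It read 6.39, 4 and 4 in TugelaDn2, with 2 repeats at the floor, against 9.60, 9.57 and 10.02 in TugelaDn5, 10.52, 10.36 and 9.39 in TugelaDn1 and 10.76, 10.21 and 10.56 in Tugela. The TugelaDn2 mean was at least 30.5-fold lower than that of TugelaDn5. This probe set and 3 of the 4 in cluster Ta.3830 were the only lower members with a clear space of more than 2 log2 units between the nearest repeats.

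In cluster Ta.385, 2 of 5 probe sets were members and TugelaDn2 repeat 3 stood apart. Ta.385.1.A1_at read 7.68, 7.18 and 10.32 in TugelaDn2, against 10.64 to 11.32 in the 9 others. Ta.385.1.A1_s_at read 9.33, 9.11 and 11.21 in TugelaDn2, against 11.89 to 12.35 in the 9 others. In both, repeats 1 and 2 of TugelaDn2 were well below the others and repeat 3 was only 0.33 and 0.68 below the lowest of them. The gap of Ta.385.1.A1_at was -2.40 with all repeats and -3.36 without repeat 3. The other 3 probe sets of the cluster also lay on the lower side, with TugelaDn2 minus the mean of the 9 between -0.72 and -0.33 and with overlapping repeats.

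Ta.15160.1.S1_at was another member with a wide spread in TugelaDn2. It read 4, 6.52 and 7.67 in TugelaDn2, with repeat 1 at the floor, against 7.93 to 8.70 in the 9 others, and its gap of -2.03 shrank to -1.0 when repeat 1 was left out. TaAffx.4633.1.S1_at, also named after its values were seen, read 7.64, 7.66 and 5.34 in TugelaDn2 and 7.72 to 8.53 in the 9 others. Its gap was -0.99 with all repeats and -0.22 without repeat 3, so 1 repeat carried it.

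The paired lower members were LOC606391 and LOC542989. LOC606391, read by Ta.12663.1.S1_at, had 7.5, 7.62 and 8.26 in TugelaDn2, against 10.29, 10.09 and 11.06 in TugelaDn5, 11.25, 10.53 and 9.77 in TugelaDn1 and 9.49, 9.39 and 9.80 in Tugela. Its gap of -1.77, to Tugela, is 3.41-fold, and the nearest repeats were 1.13 apart. LOC542989, read by Ta.28351.1.S1_at, had 11.04, 9.96 and 9.49 in TugelaDn2, against 11.74, 12.31 and 13.13 in TugelaDn5, 12.59, 11.88 and 11.14 in TugelaDn1 and 11.11, 12.52 and 12.26 in Tugela. Here the groups nearly touched, with 0.07 between TugelaDn2 repeat 1 and Tugela repeat 1. The other probe sets of that cluster, Ta.28351.1.S1_s_at and Ta.28351.1.S1_x_at, had a TugelaDn2 mean minus the mean of the 9 others of -1.85 and -1.75, and in both TugelaDn2 repeat 1 overlapped with the others.

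Cluster Ta.14739 gave its only 2 probe sets as members. Ta.14739.1.S1_s_at read 8.11, 7.0 and 7.07 in TugelaDn2, against 10.66, 10.65 and 10.66 in TugelaDn5, 8.21, 10.04 and 8.49 in TugelaDn1 and 8.88, 8.38 and 8.36 in Tugela. Ta.14739.1.S1_x_at read 8.19, 7.94 and 8.14 in TugelaDn2, against 10.50, 10.94 and 10.91 in TugelaDn5, 8.64, 10.48 and 8.82 in TugelaDn1 and 9.30, 8.84 and 8.76 in Tugela. The order was the same in both, with TugelaDn2 lowest, Tugela and TugelaDn1 overlapping, and TugelaDn5 highest.

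Others of the lower members were bright. Ta.3249.1.S1_at averaged 11.52 ± 0.29 in TugelaDn2, 12.85 ± 0.19 in TugelaDn5, 14.52 ± 0.49 in TugelaDn1 and 13.39 ± 0.25 in Tugela (SD, n = 3 each). Both other probe sets of its cluster also had all 3 TugelaDn2 repeats below the 9 others, with TugelaDn2 minus the mean of the 9 at -1.56 for Ta.3249.2.S1_x_at and -1.63 for Ta.3249.3.A1_at, and missed the rule only through the distance to TugelaDn5. Ta.6075.1.A1_at, named after its values were seen, averaged 11.83 ± 0.56 in TugelaDn2, and its 9 other repeats lay between 12.54 and 13.61, only 0.07 above TugelaDn2 repeat 3. The mean level of the 38 lower members ranged from 4.51 to 11.83 in TugelaDn2, with a median of 8.04, and their median in the other lines was 9.46 in TugelaDn5, 9.32 in TugelaDn1 and 9.20 in Tugela.

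The higher members were led by Ta.13768.1.S1_x_at. It read 12.56, 11.07 and 13.11 in TugelaDn2, against 8.42, 6.55 and 7.67 in TugelaDn5, 8.46, 8.07 and 7.5 in TugelaDn1 and 7.18, 7.35 and 8.63 in Tugela. The gap of 4.24 is an 18.8-fold higher intensity than in TugelaDn1, and the lowest TugelaDn2 repeat was 2.44 above the highest of the others. The other probe set of that cluster, Ta.13768.2.S1_at, was dim, with a mean of 5.23 in TugelaDn2, 4.28 in TugelaDn5, 4.64 in TugelaDn1 and 4.85 in Tugela and overlapping repeats. The result for this cluster thus rests on 1 probe set of a type that can share probes with related transcripts.

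Cluster Ta.20147 gave 3 members among its 5 probe sets. Ta.20147.1.S1_at read 9.34, 8.30 and 9.97 in TugelaDn2, against 6.56, 4 and 6.60 in TugelaDn5, 4.38, 5.84 and 6.70 in TugelaDn1 and 4.01, 6.21 and 6.49 in Tugela. Ta.20147.2.S1_a_at read 8.90, 7.75 and 9.19 in TugelaDn2, against 4 to 6.03 in the 9 others, 2 of which were at the floor. The gap of the first, 3.48, is at least 11.2-fold, since a repeat of TugelaDn5, the nearest line, was at the floor. The gap of the second, 3.41 to TugelaDn1, is 10.7-fold. Ta.20147.3.S1_a_at read 8.89, 8.58 and 9.69 in TugelaDn2 and 5.23 to 7.64 in the 9 others, with a gap of 1.88. In all 3 of these members TugelaDn2 repeat 2 was the lowest of the TugelaDn2 repeats. The other probe sets of the cluster, Ta.20147.2.S1_at and Ta.20147.3.S1_at, were dim and overlapped between lines.

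Ta.12024.1.A1_at and TaAffx.119704.1.A1_s_at were dim outside TugelaDn2. Ta.12024.1.A1_at read 8.91, 7.58 and 9.32 in TugelaDn2, against 4.94, 6.31 and 5.08 in TugelaDn5, 5.10, 5.49 and 5.52 in TugelaDn1 and 4, 4 and 4 in Tugela. All 3 Tugela repeats were at the floor, and TugelaDn5, the nearest line, was 3.16 below TugelaDn2. TaAffx.119704.1.A1_s_at read 9.57, 8.57 and 9.31 in TugelaDn2 and 4 to 7.01 in the 9 others, 1 of them at the floor.

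Ta.5390.1.S1_at was the most even of the members with a large gap. It read 9.65, 9.55 and 9.61 in TugelaDn2, against 7.14, 7.13 and 6.90 in TugelaDn5, 6.68, 7.59 and 7.12 in TugelaDn1 and 7.46, 7.45 and 6.04 in Tugela, a gap of 2.48 or 5.56-fold. Ta.5390.1.S1_x_at, from the same cluster, was 0.50 higher in TugelaDn2 than the mean of the 9 others, and for Ta.5390.2.S1_at that difference was -0.44. The probe sets of this cluster did not move together.

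Ta.8574.2.A1_at was bright and read 13.32, 12.04 and 13.26 in TugelaDn2, against 8.16, 8.48 and 8.85 in TugelaDn5, 10.51, 9.61 and 9.63 in TugelaDn1 and 10.22, 10.15 and 10.13 in Tugela. TugelaDn5 was below Tugela here, with TugelaDn1 and Tugela overlapping. Ta.24948.1.S1_at read 10.74, 9.49 and 12.26 in TugelaDn2 and 7.31 to 8.25 in the 9 others. Ta.23053.3.S1_x_at read 11.06, 10.14 and 10.71 in TugelaDn2 and 6.17 to 8.86 in the 9 others. The gaps of these 3 members were 2.71, 2.78 and 2.12.

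Ta.1673.1.S1_at rested on 1 repeat. It read 7.12, 6.92 and 11.78 in TugelaDn2, where repeat 2 was only 0.21 above the highest of the 9 others, whose range was 4.81 to 6.71. Its gap was 2.28 with all repeats and 0.69 without repeat 3, under the distance of the rule.

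**Figure D2:**
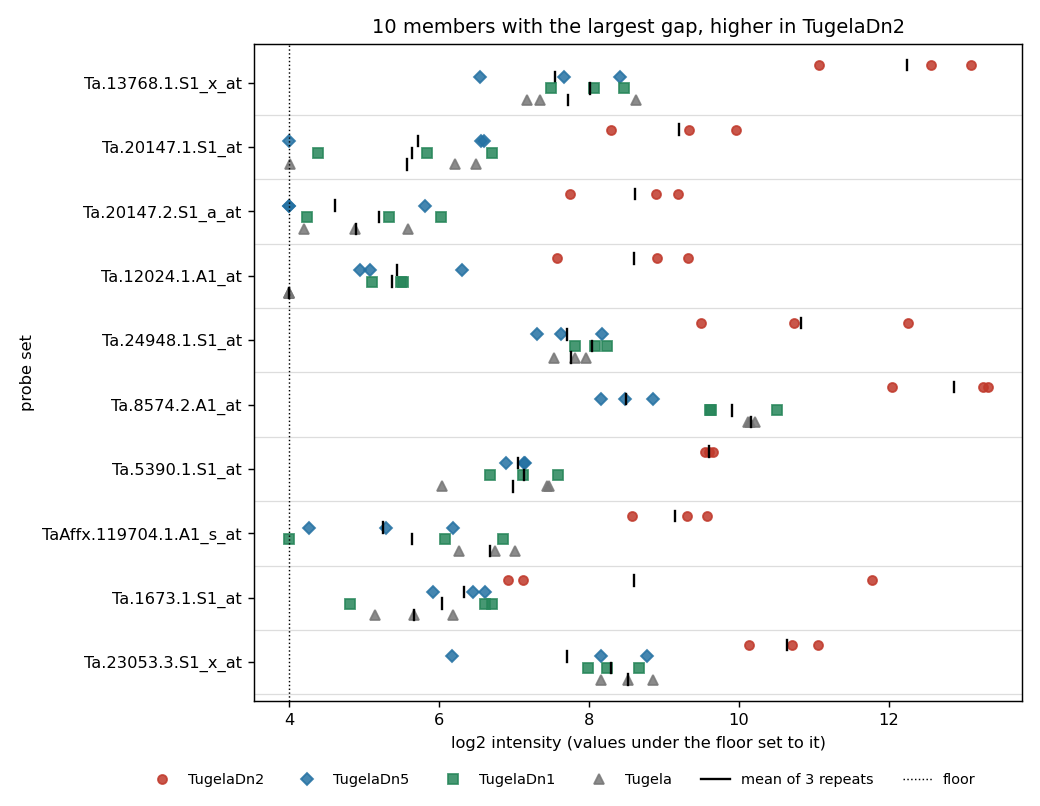
Log2 intensity (horizontal axis) of the 10 members higher in TugelaDn2 with the largest gap (vertical axis, one row each); points are the 3 repeats of each line, black bars the line means and the dotted line the floor at 4. TugelaDn2 repeats sit close together for Ta.5390.1.S1_at, while for Ta.1673.1.S1_at repeat 3 stands at 11.78 and the other TugelaDn2 repeats at 7.12 and 6.92.

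Cluster Ta.7143 gave 3 of its 4 probe sets and cluster Ta.7022 gave 3 of its 6. Ta.7143.2.S1_x_at, the brightest of these, read 12.06, 12.76 and 12.89 in TugelaDn2, against 11.93, 9.31 and 11.22 in TugelaDn5, 10.09, 10.59 and 11.36 in TugelaDn1 and 10.60, 10.96 and 10.94 in Tugela. TugelaDn5 repeat 1, at 11.93, was 0.13 below the lowest TugelaDn2 repeat. Ta.7143.1.S1_x_at and Ta.7143.3.S1_a_at had gaps of 1.33 and 1.65, and in each the TugelaDn5 repeats spread from 8.45 to 11.06 and from 4 to 8.74. The fourth probe set, Ta.7143.1.S1_a_at, was 1.35 higher in TugelaDn2 than the mean of the 9, but TugelaDn2 repeat 1 overlapped with TugelaDn5 repeat 1. In cluster Ta.7022, Ta.7022.3.S1_at read 9.90, 10.80 and 10.20 in TugelaDn2 and 7.46 to 9.64 in the 9 others. Ta.7022.2.S1_at and Ta.7022.2.S1_x_at had gaps of 1.23 and 1.03, both to TugelaDn5. The 3 probe sets of the cluster that were no members, Ta.7022.1.S1_at, Ta.7022.1.S1_s_at and Ta.7022.1.S1_x_at, were 1.09, 1.61 and 1.00 higher in TugelaDn2 than the mean of the 9, and TugelaDn5 repeat 1 was above the lowest TugelaDn2 repeat in all 3. For Ta.7022.1.S1_s_at the TugelaDn5 mean of 9.31 was above the TugelaDn2 mean of 9.23. For Ta.7022.1.S1_x_at both lines averaged 8.83.

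Cluster TaAffx.12072 gave its only 2 probe sets. TaAffx.12072.1.S1_at read 9.25, 8.53 and 8.52 in TugelaDn2 and 4.14 to 7.05 in the 9 others. TaAffx.12072.1.S1_x_at read 8.36, 8.58 and 8.92 in TugelaDn2 and 5.81 to 7.37 in the 9 others. Both kept a clear space, of 1.47 and 0.99, and their gaps were 2.03 and 1.88.

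**Figure D3:**
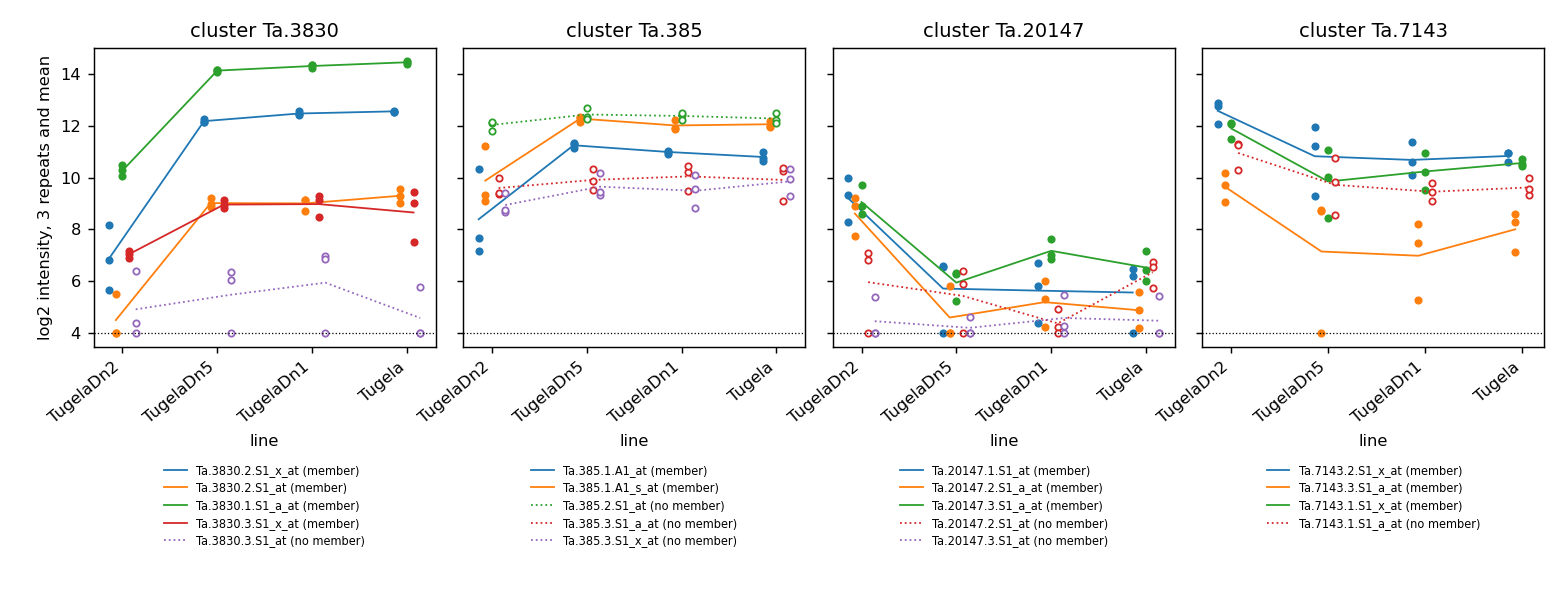
Log2 intensity (vertical axis) of all probe sets of 4 transcript clusters in the 4 lines (horizontal axis); points are the 3 repeats, lines join the means, filled points and solid lines are members, and open points and dotted lines are probe sets that are no members. In Ta.3830 the members drop in TugelaDn2 and the fifth, a dim probe set, overlaps between lines, in Ta.385 repeat 3 of TugelaDn2 lies near the other lines, and in Ta.7143 the TugelaDn5 repeats spread widely.

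The paired higher member, LOC778392, was the one with the smallest gap. Its probe set Ta.351.2.S1_x_at read 11.58, 11.87 and 11.60 in TugelaDn2, against 11.12, 11.06 and 10.46 in TugelaDn5, 10.28, 10.97 and 11.07 in TugelaDn1 and 10.45, 9.57 and 8.96 in Tugela. TugelaDn2 was 0.80 above TugelaDn5, or 1.74-fold. Ta.351.1.S1_at of the same cluster was 0.57 higher in TugelaDn2 than the mean of the 9 others and for Ta.351.3.S1_at, which was dim, that difference was -0.84.

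The brightest higher member, named for that, was Ta.28363.3.S1_x_at, with 15.37, 15.33 and 15.41 in TugelaDn2, against 13.37, 12.56 and 12.83 in TugelaDn5, 14.40, 13.84 and 14.13 in TugelaDn1 and 14.27, 13.27 and 13.90 in Tugela. The 3 other bright probe sets of its cluster went the other way or were level, with TugelaDn2 minus the mean of the 9 at -0.18 for Ta.28363.1.A1_at, -0.21 for Ta.28363.1.A1_x_at and -0.02 for Ta.28363.2.S1_a_at. Of the 4 bright probe sets of this cluster, the member alone was clearly higher. The mean level of the 58 higher members ranged from 8.0 to 15.37 in TugelaDn2, with a median of 9.43, and their median in the other lines was 7.57 in TugelaDn5, 7.89 in TugelaDn1 and 7.79 in Tugela.

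Near the limit of the rule, members and other probe sets had almost the same values. Just inside, next to LOC778392, were Ta.23365.1.A1_at and TaAffx.31781.1.S1_at on the higher side, at 0.81 and 0.82. Just outside were Ta.21253.1.S1_at, TaAffx.116919.1.S1_at and Ta.22965.1.S1_a_at, at 0.797, 0.789 and 0.778. On the lower side, Ta.9866.1.S1_at, Ta.25422.1.A1_at and Ta.4152.1.S1_at were inside at -0.82, -0.83 and -0.84, and Ta.3862.1.S1_s_at, TaAffx.53717.1.S1_at and Ta.3249.2.S1_x_at were outside at -0.794, -0.788 and -0.780. The space between the nearest repeats was small in many members. It had a median of 0.33 in both directions and was under 0.1 in 9 higher and 4 lower ones, among them Ta.6241.1.S1_s_at, named after its values were seen, where TugelaDn2 repeat 1 and TugelaDn5 repeat 1 differed by less than 0.01.

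**Figure D4:**
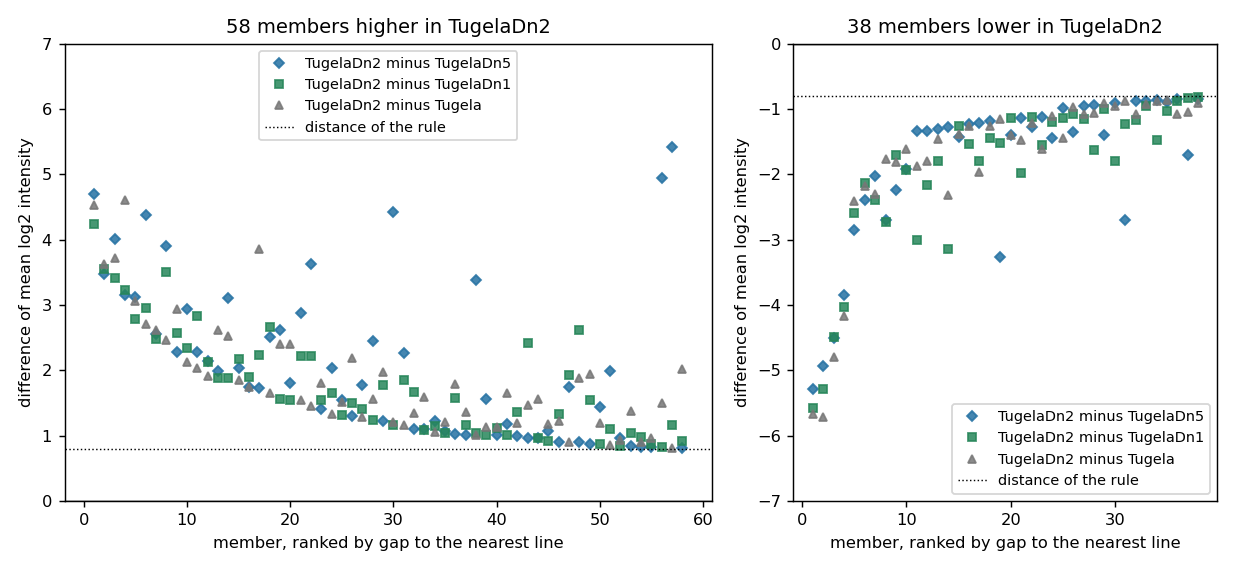
Difference between the TugelaDn2 mean and the mean of each other line in log2 intensity (vertical axis) for the 58 higher members (left) and the 38 lower members (right), ranked by the gap to the nearest line (horizontal axis); the dotted line is the distance of 0.8 that the rule asked for. The median difference of the higher members was 1.76 to TugelaDn5, 1.55 to TugelaDn1 and 1.57 to Tugela.

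Over the members as a group the other lines lay at similar distances, but single members differed. Among the higher ones the median difference was 1.76 for TugelaDn2 minus TugelaDn5, 1.55 for TugelaDn2 minus TugelaDn1 and 1.57 for TugelaDn2 minus Tugela. Among the lower ones it was -1.33, -1.54 and -1.39 in the same order. The distances of a member to the 3 lines differed from each other by more than 0.5 in 37 of the 58 higher members and 14 of the 38 lower ones, with a median of 0.69 and 0.42. The widest spread between lines was seen in Ta.23365.1.A1_at, where TugelaDn2 was 0.81 above Tugela and 5.42 above TugelaDn5.

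The repeats nearest to the space between the groups were not spread evenly over the arrays. Among the higher members the closest of the 9 other repeats was TugelaDn5 repeat 1 in 17 of 58 and TugelaDn1 repeat 2 in 12, and TugelaDn5 repeat 3 in 0. Among the lower members it was TugelaDn5 repeat 1 in 10 of 38. On the TugelaDn2 side, repeat 1 was the closest to the others in 27 of 58 higher members and repeat 3 in 19 of 38 lower ones. The higher members as a group also stood high in TugelaDn5 repeat 1, where 46 of 58 were above their line mean by a median deviation of 0.37, against 0.00 for all bright probe sets on that array. The part of this array in the members' values was not tested.

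Members were also chosen again from 2 TugelaDn2 repeats and looked up in the third. The 9 other repeats took part in that choice and were also what the third was set against, so part of the shares below is fixed by the choice, and they are a description. Among those higher in the 2 repeats used, the repeat left out lay above all 9 others in 63 of 116 without repeat 1, 49 of 63 without repeat 2 and 56 of 113 without repeat 3, or 57.5% over the 3 rounds. Among all bright probe sets the share was 9.41%. Among those lower, the repeat left out lay below all 9 others in 37 of 67, 37 of 48 and 40 of 102, or 52.5%, and in 10.3% of all bright probe sets. The share was lowest when repeat 3 was the one looked up. In those rounds 37 of 113 higher and 35 of 102 lower candidates had repeat 3 on the far side of the nearest line mean.

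Other probe sets of the members' clusters, which the rule had left out, mostly lay on the same side. For the higher members there were 39 such probe sets in 21 clusters, of which 32 had a TugelaDn2 mean above that of the 9 others, against 47.7% of all probe sets. Of the 27 that were bright, 23 were on the same side and 4 had all 3 TugelaDn2 repeats above the 9, where all bright probe sets had 52.5% and 1.52%. The 4 were Ta.13803.1.S1_s_at, Ta.13803.1.S1_x_at, Ta.23053.1.S1_a_at and Ta.23127.3.S1_at. For the lower members there were 30 in 11 clusters, 24 of them on the lower side, against 51.5% of all probe sets. Of the 22 that were bright, 18 were on the same side and 4 were below all 9 others (1.43% of all bright probe sets), namely Ta.10354.3.S1_x_at, Ta.21505.1.S1_at, Ta.3249.2.S1_x_at and Ta.3249.3.A1_at. Such probe sets can share probes with the member, and 12 of the 30 came from the single cluster TaAffx.128617, so they are no independent measurements.

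The types of probe set among the members were in part like those of other bright probe sets. Names ending in _x_at made up 17.7% of the members and 17.9% of the bright probe sets, against 11.1% of all, and TaAffx names 26.0% of the members and 23.7% of the bright probe sets, against 48.5% of all. Names ending in _a_at were rarer, at 6.25% of the members and 12.8% of the bright probe sets, and names ending in plain _at more frequent, at 69.8% and 61.6%. The 96 members came from 84 clusters. Repeated hybridisation of TugelaDn5 repeat 3 gave a median absolute difference of 0.26 for the higher members and 0.10 for the lower ones. It was 0.09 for all bright probe sets and 0.22 for all probe sets. The rule made the higher members dimmer in TugelaDn5, with a median of 7.57 against 9.46 for the lower ones. The part of level in this difference was not tested. The median SD of the higher members was 0.63 in TugelaDn5, 0.48 in TugelaDn1 and 0.37 in Tugela, and that of the lower members 0.22, 0.23 and 0.25.

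Within lines, the members of each direction varied together only weakly. Over the deviations of the 9 other repeats from their line means, the mean correlation between pairs was 0.08 among the higher members and 0.03 among the lower ones (n = 9 repeats; the 3 repeats of a line share its mean), and 0.00 among all bright probe sets. Single pairs were closer. Those named below had the 3 highest r among all other members of the same direction, over only 9 values. Such a choice favours high r by itself, so these values are descriptions. The members whose 9 values in the other lines were most like those of Ta.20147.1.S1_at were TaAffx.53675.1.S1_at (Pearson r = 0.86), Ta.7143.3.S1_a_at (0.86) and Ta.7143.2.S1_x_at (0.83), none of its own cluster. In both Ta.20147.1.S1_at and Ta.7143.3.S1_a_at, TugelaDn5 repeat 2 was at the floor. For Ta.13768.1.S1_x_at they were Ta.24948.1.S1_at (0.69), Ta.7365.3.S1_at (0.62) and Ta.9251.1.S1_x_at (0.59). For Ta.3830.2.S1_x_at they were Ta.8475.1.A1_at (0.89), Ta.3830.1.S1_a_at (0.85) and TaAffx.107221.1.S1_at (0.70). Between Ta.3830.2.S1_x_at and Ta.3830.1.S1_a_at, however, the correlation of deviations from line means was -0.32, so that their likeness lay in the line means.

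Differences among TugelaDn5, TugelaDn1 and Tugela were tested. The rule did not choose on them, but it kept the repeats of these lines on 1 side of TugelaDn2 and their means at least 0.8 from it, which limits the values they could take. limma was fitted to the 9 repeats of these lines over all 61179 probe sets, and a probe set was called at a Benjamini-Hochberg adjusted p under 0.05. For TugelaDn5 minus Tugela, 4 of the 96 members were called, or 4.17%, where 1.75% of all and 3.60% of bright probe sets were called. Deviations of same-numbered repeats in TugelaDn5 and Tugela correlated at 0.11 to 0.25, and these numbers were read as pairs although the labels do not say so. With this replicate block 2 members were called, Ta.23365.1.A1_at and TaAffx.31781.1.S1_at, beside 429 of all probe sets. For TugelaDn5 minus TugelaDn1, 5 members were called, or 5.21%, against 1.62% of all and 3.36% of bright probe sets. For TugelaDn1 minus Tugela, limma called 0 members and 0.0229% of all probe sets. At an unadjusted limma p under 0.05 there were 8 of the 96 members and 4230 of all 61179 probe sets. With these settings the members called were thus a share near that of other bright probe sets, and the number concerned is small. Counts under other settings are given below, without those of bright probe sets.

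TugelaDn5 was lowest, and far below the other lines, in the called members Ta.23365.1.A1_at, TaAffx.31781.1.S1_at and TaAffx.29213.1.S1_at. That TugelaDn2 was highest in them was set by the rule. Ta.23365.1.A1_at read 14.45, 13.92 and 14.07 in TugelaDn2, 9.38, 8.94 and 7.84 in TugelaDn5, 13.33, 12.74 and 12.87 in TugelaDn1 and 12.67, 13.69 and 13.64 in Tugela. On the log2 scale, TugelaDn5 minus Tugela was -4.62 ± 0.45 (SE, limma adjusted p = 0.00361) and TugelaDn5 minus TugelaDn1 was -4.26 ± 0.45 (limma adjusted p = 0.00543). Both calls held in all 18 alternatives tried.

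TaAffx.31781.1.S1_at read 9.08, 9.65 and 9.55 in TugelaDn2, 4, 4 and 5.43 in TugelaDn5, 8.64, 8.83 and 8.33 in TugelaDn1 and 8.01, 7.53 and 8.26 in Tugela. TugelaDn5 minus Tugela was -3.46 ± 0.41 (limma adjusted p = 0.00900) and TugelaDn5 minus TugelaDn1 was -4.12 ± 0.41 (limma adjusted p = 0.00437), and since 2 TugelaDn5 repeats were at the floor, both values depend on where the floor is set. The first of these calls was lost with a floor of 7 on the log2 scale, where the difference was -0.93 (limma adjusted p = 0.105), and the second held in all alternatives. TaAffx.29213.1.S1_at read 10.82, 10.99 and 11.02 in TugelaDn2, 5.72, 6.61 and 7.21 in TugelaDn5, 9.96, 10.09 and 9.31 in TugelaDn1 and 9.53, 9.78 and 9.88 in Tugela. TugelaDn5 minus Tugela was -3.22 ± 0.39 (limma adjusted p = 0.00956) and TugelaDn5 minus TugelaDn1 was -3.27 ± 0.39 (limma adjusted p = 0.00977). With the replicate block these became 0.0547 and 0.0537 (limma adjusted p), so that both calls were lost, and both calls held in the other 17 alternatives. Repeat numbers were read as pairs only for TugelaDn5 and Tugela. Between TugelaDn5 and TugelaDn1 the deviations of same-numbered repeats correlated at -0.09 to -0.06, so the block models no pairing seen there. In each of these 3 members, the means of TugelaDn1 and Tugela were much closer to each other than either was to TugelaDn5.

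The other calls were lost in more of the alternatives. For Ta.8574.2.A1_at, TugelaDn5 minus Tugela was -1.67 ± 0.28 (limma adjusted p = 0.0373), a call that held in 7 of 18 alternatives and in 1 of the 9 that left out a repeat. For Ta.3249.1.S1_at, a lower member, TugelaDn5 minus TugelaDn1 was -1.67 ± 0.27 (limma adjusted p = 0.0321), and held in 10 of 18. Ta.25422.1.A1_at, also a lower member, read 8.14, 8.30 and 8.79 in TugelaDn2, 9.97, 10.12 and 10.24 in TugelaDn5, 9.35, 9.27 and 9.10 in TugelaDn1 and 9.54, 9.29 and 9.52 in Tugela. It was 0.87 ± 0.14 higher in TugelaDn5 than in TugelaDn1 (limma adjusted p = 0.0334), and held in 9 of 18. Over the alternatives, the limma adjusted p was between 0.000966 and 0.135 for Ta.8574.2.A1_at, between 0.000762 and 0.107 for Ta.3249.1.S1_at and between 0.00719 and 0.135 for Ta.25422.1.A1_at.

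**Figure D5:**
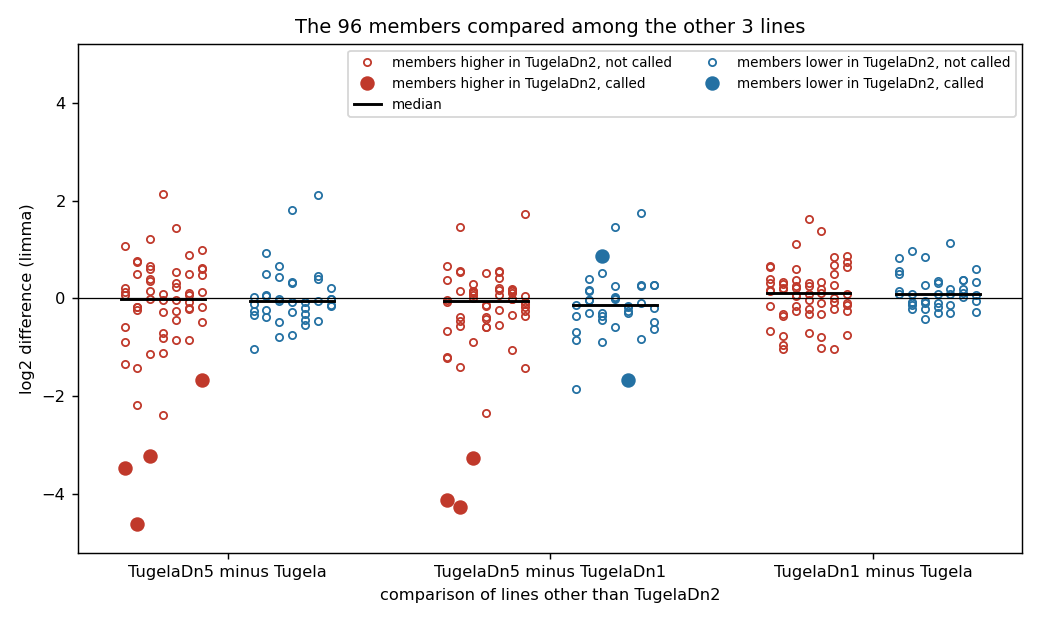
Log2 difference (vertical axis) of each of the 96 members in the 3 comparisons among lines other than TugelaDn2 (horizontal axis), from limma on 9 repeats; red points are members higher and blue points members lower in TugelaDn2, filled points are called at an adjusted p under 0.05 and black bars are medians. The medians lie between -0.14 and 0.11, and the 3 lowest filled points in TugelaDn5 minus Tugela are Ta.23365.1.A1_at, TaAffx.31781.1.S1_at and TaAffx.29213.1.S1_at, at -4.62, -3.46 and -3.22.

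For TugelaDn2 minus the mean of the other lines, limma over all 12 repeats called 111 probe sets (79 higher and 32 lower), which is 0.181% of all. These included 26 members, 14 of them higher and 12 lower. The members had been chosen on this contrast, so nothing is read from that count.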

How the data were processed

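RNA from infested wheat leaves of 4 near-isogenic lines was read on 13 Affymetrix wheat arrays, for 12 biological repeats. The files hold 1 intensity for each probe set on a linear scale, which the authors had scaled so that each array had a trimmed mean of 500.1 after the lowest and highest 2% of values were left out. The software that summarised the probes is not given in the sources used here. Of 61290 probe sets, 111 controls were removed. Intensities under 16 were set to 16, log2 was taken, and the 2 arrays of TugelaDn5 repeat 3 were averaged. The number of arrays limits the precision, and nothing says how many plants made up a repeat, so p-values measure the spread between these samples. Of the 61179 probe sets, 1273 were paired with 1 gene (771 genes) and 59906 with none in the platform annotation used here, which can be old.

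The members were found by the rule in the report. Differences among TugelaDn5, TugelaDn1 and Tugela were tested on a log2 scale (limma 3.58.1, R 4.3.3) over their 9 repeats (6 residual and 1.30 prior degrees of freedom), without TugelaDn2, and TugelaDn2 minus the mean of the other lines on 12 repeats (8 and 1.45), with Benjamini-Hochberg adjustment over all probe sets. The scripts were tested on simulated data. The members and the gene lists were chosen with earlier results of these data known.

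The probe sets named are the 10 members with the largest gap in each direction, those paired with 1 gene, those whose cluster held 2 or more members, those called among the other lines, the 3 on each side of the distance limit, up to 3 members most like each of the 3 with the largest gap, and the 2 with the largest difference in each gene list. Others are said to have been named after their values were seen. Alternatives were other floors, distances and levels, quantile normalization, median centring, either array of TugelaDn5 repeat 3 alone, a filter on dim probe sets, limma with trend and robust settings, 1 fit over all lines, the replicate block, and each repeat left out in turn. Deviations of same-numbered repeats correlated at 0.11 to 0.25 between TugelaDn5 and Tugela, over 0.1 in 3 of 3, so that the numbers were read as pairing these lines from the data, since the labels do not say so. Between the other pairs of lines at most 2 of 3 were over 0.1, over a range of -0.21 to 0.21. Repeats of different numbers were not compared, so this pairing is an assumption.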

Additional observations from a re-analysis of the deposited data

How the results depend on the processing

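The number of higher members, 58, became 104 with a distance of 0.5, 109 with a level of 6 and 23 with a level of 10. The number of lower members, 38, became 107 with a distance of 0.5, 24 with a distance of 1, 103 with a level of 6 and 14 with a level of 10. Leaving out 1 repeat gave 53 to 116 higher members, with 116 without TugelaDn2 repeat 1, 113 without TugelaDn2 repeat 3 and 96 without TugelaDn5 repeat 1, and 33 to 102 lower members, with 67 without TugelaDn2 repeat 1 and 102 without TugelaDn2 repeat 3. With fewer repeats to clear, the rule is easier to meet. Each repeat left out in turn kept 32 higher and 23 lower members every time, quantile normalization, centring and either array of TugelaDn5 repeat 3 kept 53 and 36, and log2 floors of 6, 7 and 0 kept 55 and 36. The gaps of the 96 members gave 1440 values under other settings, of which 56 moved by more than the SD of the TugelaDn2 repeats and 0 changed sign. For members chosen by the rule, leaving out a repeat or raising the floor cannot reverse a gap. Leaving out a TugelaDn2 repeat also cannot move it by that SD. In those settings the counts therefore do not measure stability. Members called for TugelaDn5 minus Tugela were 4 with the settings of the report, beside 1072 of all 61179 probe sets. They were 11 with trend and robust settings (2208 of all), 7 with a log2 floor of 6 (1546) and 7 with one of 7 (1216). When probe sets dimmer than the median were dropped, 7 members were called, beside 1566 of 30589 probe sets. With 1 repeat left out they were 3 to 5, beside 604 to 1060 of all. For TugelaDn5 minus TugelaDn1, 5 members (993 of all) became 13 with trend and robust settings (2087 of all). They became 8 without the dimmer probe sets (1535 of 30589) and 3 to 6 with 1 repeat left out (612 to 798 of all). The count was 3 each without Tugela repeat 1, TugelaDn1 repeat 1 or 3, or any TugelaDn5 repeat. For TugelaDn1 minus Tugela, 0 members were called with any repeat left out, beside 1 to 68 of all. For TugelaDn2 minus the mean of the other lines, 111 probe sets became 439 with trend and robust settings, 247 and 169 with log2 floors of 6 and 7, 189 without the dimmer probe sets and 65 to 143 with 1 repeat left out, the 65 without TugelaDn2 repeat 2. The cause was not tested. With the replicate block, for whose pairing the correlations are given with the processing, 2 members were called for TugelaDn5 minus Tugela (429 of all). The block also gave 2 members for TugelaDn5 minus TugelaDn1 (400 of all) and 50 probe sets for TugelaDn2 minus the mean of the other lines. TaAffx.29213.1.S1_at was then at a limma adjusted p of 0.0547 for TugelaDn5 minus Tugela and 0.0537 for TugelaDn5 minus TugelaDn1.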

Other observations

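Genes of known function were read in 9 lists of 121 probe sets, none of which were members. For TugelaDn2 minus the mean of the other lines, limma over 12 repeats called 0 of the 121, with 11 at an unadjusted p under 0.05 (9.09%, 2 of them higher), against 8.53% of all probe sets, and each value below is the log2 difference of this comparison with its SE. Over all 61179 probe sets the median was -0.01 and 29643 were higher. Of 36 probe sets for photosynthesis genes, most of them for rbcl alone, 8 were higher and the median was -0.13. The largest differences were in 2 dim rbcl probe sets, TaAffx.128414.40.S1_at (-1.36 ± 0.53, limma adjusted p = 0.499) and TaAffx.128414.38.S1_at (-0.92 ± 0.37, limma adjusted p = 0.515). Of 9 for pathogenesis-related and antimicrobial proteins 4 were higher and the median was -0.26. Among them PR5, a thaumatin-like protein, averaged 13.53 ± 0.65 in TugelaDn2, 12.49 ± 2.27 in TugelaDn5, 13.70 ± 0.55 in TugelaDn1 and 10.28 ± 2.63 in Tugela (SD, n = 3 each), a difference of 1.37 ± 1.1, and the thionin THI1.1 had -0.81 ± 0.35. The SD of PR5 within TugelaDn5 and within Tugela was larger than its difference. The THI1.1 probe set averaged 4.24 in TugelaDn2, 6.06 in TugelaDn5, 4.53 in TugelaDn1 and 4.55 in Tugela, near the floor outside TugelaDn5.

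Of 11 probe sets for enzymes that remove reactive oxygen 4 were higher, with a median of -0.31. The peroxidase Prx1 gave 1.07 ± 0.68 for the dim Ta.6572.3.S1_at and -0.64 ± 0.21 for the bright Ta.6572.2.S1_at. The other Prx1 probe sets, also bright, were at -0.31 and -0.62. Of 6 for phenylpropanoid, benzoxazinoid and hormone synthesis 3 were higher (median -0.07), and GA20ox1d, which makes gibberellin precursors, had -0.54 ± 0.25 and -0.39 ± 0.27 for its 2 probe sets. Of 6 for protease inhibitors 3 were higher (median 0.02), with Serpin-Z1C at -0.68 ± 0.56 and a probe set of WSZ1b at 0.45 ± 0.60. Both of these were dim, with means of at most 5.19 in every line. Both probe sets for sugar metabolism were higher (median 0.18), the invertase IVR1 by 0.34 ± 0.26 and AGP-S, a subunit of the enzyme that feeds starch synthesis, by 0.01 ± 0.13. IVR1 was at or near the floor in every line, at 4.44 in TugelaDn2, 4.30 in TugelaDn5 and 4 in TugelaDn1 and Tugela. Of 6 for cold, heat and dehydration proteins 3 were higher (median -0.03), with a probe set of Rab15 at 0.61 ± 0.38 and hsp16.9A at 0.56 ± 0.31, both near the floor. The other Rab15 probe sets were at -0.14 and -0.18. Of 28 for dividing tissue 10 were higher (median -0.20), with a probe set of the histone wcH2B-8 at 1.15 ± 0.49 and one of the tubulin TUBA at -0.97 ± 0.54. The other wcH2B-8 probe sets lay between -0.96 and 0.27. For that TUBA probe set TugelaDn2 was at the floor, and the other, bright TUBA probe set was at 0.15. Of 17 for seed storage proteins 8 were higher (median -0.01), with a probe set of avnla at 1.07 ± 0.38 and one of gamma-2 at -0.77 ± 0.52. The other avnla probe set was at -0.47, and the other gamma-2 probe sets were at 0.18 and 0.10.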
